A study of Mus musculus with 4 samples.

Results

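Zfp genes, named in the mouse as Zfp followed by a number, were examined in Hepa1-6 cells, a mouse hepatoma line, with and without an shRNA against Chd1. RPKM values (reads scaled by transcript length and by mapped reads of the library) of RefSeq transcripts were summed per gene. The genes described here are the 188 of 386 Zfp genes in the table whose mean over the 4 libraries was at least 2 RPKM. They were thus selected on their measured level, so the level itself is given as a description. The threshold of 2 RPKM did not use the difference between the groups, though members were chosen with earlier results of these data known. The study measured poly(A) RNA in 4 libraries. The Chd1KD group (n = 2) had received lentivirus with an shRNA against Chd1, which encodes a chromatin remodeller that binds methylated histone H3 lysine 4. The Control group (n = 2) had received lentivirus with a scrambled shRNA. Both groups are labelled with the same cell line, both were kept under 4 μg/ml puromycin for 3 weeks after transduction, and their genotype is labelled Chd1 knock down in Chd1KD and wild type in Control. The labels name neither the number of shRNA sequences used nor the origin of the libraries within a group, be it separate infections or one, so the spread behind each p may be technical.

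Most Zfp genes encode proteins with tandem C2H2 zinc fingers, small folds held by a zinc ion, which together read a stretch of DNA. Many of them also carry a KRAB domain at the N-terminus, which binds the co-repressor Trim28 and through it brings histone H3 lysine 9 methylation, heterochromatin protein 1 and DNA methylation to retrotransposons and imprinted loci. Such genes arose by tandem duplication and lie in clusters, and the name Zfp also covers unrelated proteins with other zinc folds, among them RNA-binding proteins and ubiquitin ligases.

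The knockdown was visible in the targeted gene. Chd1 stood at 10.36 and 11.31 RPKM in the Chd1KD libraries, against 21.43 and 22.49 RPKM in the Control libraries, a log2 fold change of -0.96 (SE 0.07, limma adjusted p = 0.012). Log2 fold changes are Chd1KD minus Control on log2(RPKM + 1), which understates differences of low genes. Summed RPKM was 466950 and 459382 in the Chd1KD libraries and 484490 and 462332 in the Control libraries, and the number of reads behind these values is unknown. Of 8 hepatocyte or hepatoma markers, 5 reached a mean of 1 RPKM (Alb, Afp, Apoe, Hnf4a and Trf), and Ttr and Serpina1a were listed at 0 in every library. Their summed level was 981 and 1310 RPKM in Chd1KD and 1390 and 2260 RPKM in Control, most of it Apoe (784.4 and 1080 RPKM in Chd1KD, against 1222 and 2023 RPKM in Control). The markers did not all go the way of that sum, with ratios of Chd1KD to Control means of 1.63 for Afp, 1.28 for Alb, 0.816 for Trf and 0.783 for Hnf4a and limma adjusted p of 0.077, 0.54, 0.21 and 0.12. Of the markers of macrophages, endothelium and lymphocytes none reached 1 RPKM (Cd68 was not used here), and the fibroblast and stellate cell gene Dcn was at 385.8 to 393.3 RPKM in Chd1KD and 385.8 to 430.2 RPKM in Control while Col1a1, Col1a2 and Pdgfrb were near or at 0. The part of these markers in the Zfp values was not tested.

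The Zfp genes were mostly low to moderate in level. Of the 188, 83 averaged 2 to under 5 RPKM, 88 averaged 5 to under 20 RPKM and 17 averaged 20 RPKM or more, with a median of 5.77 RPKM. Of the Zfp genes under 2 RPKM, 59 averaged 1 to under 2 RPKM, 84 were lower but above 0 in some library, and 55 were listed at 0 in all 4 libraries. Just inside the threshold were Zfp3 at 2.012 RPKM and Zfp607a at 2.038 RPKM, and just outside were Zfp184 at 1.948 RPKM and Zfp654 at 1.901 RPKM. None of the 188 was at 0 in any library, and since the test took every gene with a mean of at least 1 RPKM, all 188 were tested. Summed over the 188, the level was 1775 and 1787 RPKM in the Chd1KD libraries and 1811 and 1800 RPKM in the Control libraries.

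The 3 most abundant members were Zfp207, Zfp706 and Zfp622. Zfp207 (BuGZ), which binds microtubules and the spindle checkpoint protein Bub3, had 84.69 and 78.02 RPKM in Chd1KD, against 91.21 and 83.81 RPKM in Control. Zfp706, a small protein needed for mouse embryonic stem cells to leave self-renewal, had 76.10 and 76.01 RPKM in Chd1KD, against 78.61 and 76.59 RPKM in Control. Zfp622, which acts in late maturation of the large ribosomal subunit, had 64.28 and 61.05 RPKM in Chd1KD, against 58.90 and 55.22 RPKM in Control. The groups overlapped for Zfp207, did not overlap for Zfp706, where Chd1KD was lower by 0.03 on the log2 scale, and did not overlap for Zfp622, where Chd1KD was higher by 0.13 (SE 0.06, limma adjusted p = 0.31). Zfp36l1, Zfp106 and Zfp664 followed, with overlapping groups and log2 fold changes of 0.04, 0.02 and 0.06.

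No expressed Zfp gene passed the test between the groups. Among all 10209 tested genes, 47 (0.46%) had a limma adjusted p under 0.05, and among the 188 Zfp genes the count was 0. At an adjusted p under 0.1 the count was 1 of 188, Zfp422 (0.532%), beside 2.01% of all tested genes. At an unadjusted p under 0.05 there were 17 Zfp genes (9.04%), beside 18.5% of all tested genes. Of these, 3 were higher in Chd1KD (1.6%, beside 7.24% of all tested genes) and 14 were lower in Chd1KD (7.45%, beside 11.3%). Both Chd1KD libraries stood above both Control libraries for 22 Zfp genes (11.7%, beside 21.3% of all tested genes), and below both for 45 (23.9%, beside 30.5%). A log2 fold change of at least 0.2 in size was reached by 19 Zfp genes (10.1%), beside 18.1% of all tested genes.

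The fold changes of the Zfp genes were small and centred near 0. Their median was -0.01, with an interquartile range of -0.08 to 0.04 and extremes of -0.42 and 0.37, and the median size was 0.059. Over all tested genes the median was -0.02, the interquartile range was -0.11 to 0.07, and the median size was 0.092. The sign was positive for 80 of 188 Zfp genes (42.6%), beside 43.5% of all tested genes. The negative sign depended on the scaling, with 108 of 188 Zfp genes below 0 as deposited and 82 after quantile normalization, where their median was 0.0147. Within the range of 2 to under 20 RPKM, 8.77% of 171 Zfp genes had an unadjusted p under 0.05, beside 19.4% of all 5681 tested genes in that range. These shares are descriptions, and no test of the difference between them was run.

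**Figure D1:**
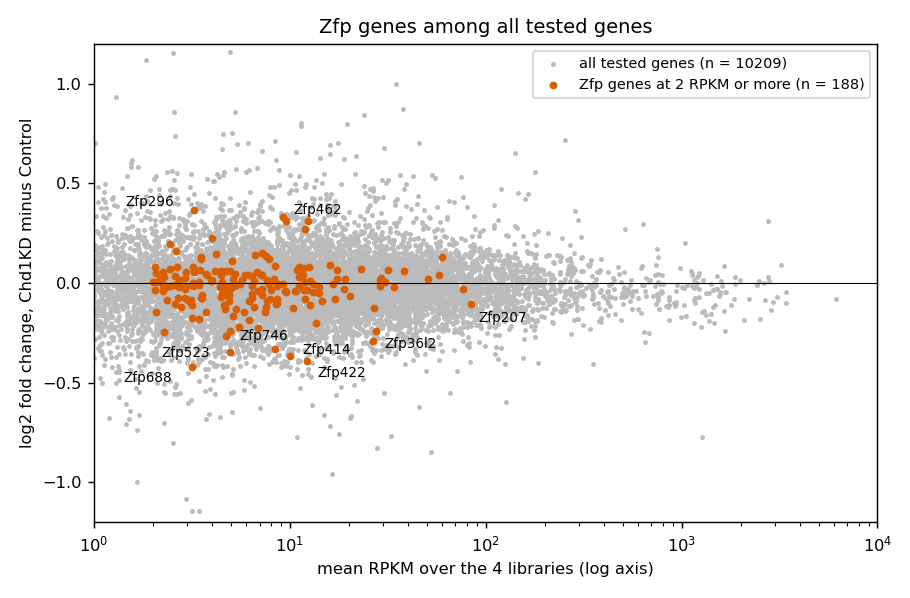
Log2 fold change (Chd1KD minus Control, vertical axis) against mean RPKM over the 4 libraries (horizontal axis, log scale) for all 10209 tested genes in grey and the 188 expressed Zfp genes in orange, 1 point per gene. The Zfp genes lie between -0.42 and 0.37 and close to 0 along the whole range of levels, and 14 of all tested genes lie outside the plotted range of ±1.2.

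On log2(RPKM + 1), the median over the 188 Zfp genes of Chd1KD replicate 1 minus the Control libraries was -0.038 for Control replicate 1 and -0.042 for Control replicate 2. For Chd1KD replicate 2 the same medians were -0.004 and 0.010. Within the groups, the median was 0.032 for Chd1KD replicate 2 minus replicate 1 and 0.001 for Control replicate 2 minus replicate 1. The median was thus below 0 against both Control libraries for Chd1KD replicate 1 but not for replicate 2, and the median log2 fold change without Chd1KD replicate 1 was 0.0058. The median size of the difference between libraries was 0.079 to 0.093 between groups, 0.073 within Chd1KD and 0.082 within Control. Over all tested genes it was 0.097 to 0.119 between groups, 0.068 within Chd1KD and 0.095 within Control.

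The lowest p among the Zfp genes belonged to Zfp422, known as Krox-26, a protein with 5 fingers described in the developing mouse tooth. Zfp422 (chr6:116624016-116628999, GRCm38.p6) had 10.35 and 10.51 RPKM in Chd1KD, against 14.22 and 13.71 RPKM in Control. The libraries of each group lay close together and the groups were well apart, with a ratio of means of 0.747 and a log2 fold change of -0.39 (SE 0.06, limma adjusted p = 0.067). Its adjusted p was between 0.035 and 0.25 over the other settings, with 0.048 under a robust variance trend and 0.047 without Control replicate 2.

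Of the KRAB genes, Zfp688 and Zfp746 were lowest relative to Control. Zfp688 (chr7:127418963-127423241) had 2.788 and 2.343 RPKM in Chd1KD, against 3.925 and 3.616 RPKM in Control, a log2 fold change of -0.42 (SE 0.10, limma adjusted p = 0.11). Zfp746 (chr6:48062391-48086986), known as PARIS, is a repressor of the gene for the mitochondrial regulator PGC-1α and a substrate of the ubiquitin ligase parkin. It had 7.747 and 6.928 RPKM in Chd1KD, against 9.691 and 9.265 RPKM in Control, a log2 fold change of -0.33 (SE 0.08, limma adjusted p = 0.11). In both genes all Chd1KD values were below all Control values. Zfp930 followed, with 3.821 and 4.544 RPKM in Chd1KD, against 5.323 and 5.129 RPKM in Control.

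Among the other genes without a KRAB match, Zfp414 (chr17:33629092-33631716) had 9.162 and 8.011 RPKM in Chd1KD, against 11.94 and 10.78 RPKM in Control, a log2 fold change of -0.37 (SE 0.09, limma adjusted p = 0.11). Zfp523, the mouse gene of human ZNF76 and a relative of Zfp143, had 4.454 and 4.049 RPKM in Chd1KD, against 6.064 and 5.289 RPKM in Control (log2 fold change -0.34, limma adjusted p = 0.14). Zfp146, which is made almost wholly of fingers, had 24.41 and 25.93 RPKM in Chd1KD, against 28.86 and 30.96 RPKM in Control (log2 fold change -0.24, limma adjusted p = 0.15). In each of these the groups were apart, and none passed the test across all genes in the fit without a replicate block. The remaining 7 lower members were Zfp213, Zfp825, Zfp444, Zfp428, Zfp41, Zfp507 and the mRNA decay gene Zfp36l2. Of these only Zfp825 had a KRAB match. Their ratios of means ran from 0.785 for Zfp41 to 0.860 for Zfp428 and Zfp507.

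The promoters of the 4 genes with the lowest p that have an entry are shown here to give the sequence around an annotated start of each. They come from RefSeq (GRCm38.p6), run 5′ to 3′ on the strand of the gene, and span 250 bases before to 50 bases after the start listed first for the gene. For Zfp422, Zfp746 and Zfp688 the whole window lies inside the annotated span of the gene, since that span begins further upstream, and for Zfp414 the start is the start of the span. Capitals mark 3 motifs wherever they occur on either strand. The GC box was searched with the letters GGGCGG. The box bound by NF-Y, named for its letters, was searched with CCAAT. The TATA box was searched as the run of letters TATAAA. None of the marked matches overlaps another.
Zfp422 (chr6:116628652-116628951, minus strand): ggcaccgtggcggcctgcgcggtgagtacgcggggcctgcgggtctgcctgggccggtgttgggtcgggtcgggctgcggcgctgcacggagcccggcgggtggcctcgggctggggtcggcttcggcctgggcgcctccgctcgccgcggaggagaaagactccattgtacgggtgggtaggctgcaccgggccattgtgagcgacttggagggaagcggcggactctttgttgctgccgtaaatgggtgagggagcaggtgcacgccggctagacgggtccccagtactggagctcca
Zfp746 (chr6:48086544-48086843, minus strand): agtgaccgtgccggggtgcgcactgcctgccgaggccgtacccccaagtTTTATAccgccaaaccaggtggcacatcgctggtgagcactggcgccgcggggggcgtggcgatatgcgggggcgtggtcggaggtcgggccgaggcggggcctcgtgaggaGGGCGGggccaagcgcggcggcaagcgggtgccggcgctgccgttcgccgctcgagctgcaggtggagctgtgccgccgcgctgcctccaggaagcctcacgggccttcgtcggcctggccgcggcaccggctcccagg
Zfp688 (chr7:127421985-127422284, minus strand): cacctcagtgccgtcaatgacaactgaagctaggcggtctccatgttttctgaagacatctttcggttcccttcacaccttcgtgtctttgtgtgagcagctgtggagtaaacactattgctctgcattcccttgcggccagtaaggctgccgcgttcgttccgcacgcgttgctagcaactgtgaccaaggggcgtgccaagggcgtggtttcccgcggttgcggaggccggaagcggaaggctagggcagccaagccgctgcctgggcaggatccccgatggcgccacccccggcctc
Zfp414 (chr17:33628842-33629141, plus strand): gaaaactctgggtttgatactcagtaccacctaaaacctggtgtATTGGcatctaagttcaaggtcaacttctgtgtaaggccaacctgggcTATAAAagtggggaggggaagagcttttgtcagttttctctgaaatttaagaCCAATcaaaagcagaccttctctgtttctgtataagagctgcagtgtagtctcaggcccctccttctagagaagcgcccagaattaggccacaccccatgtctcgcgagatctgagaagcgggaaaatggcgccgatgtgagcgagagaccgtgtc
The windows of Zfp422, Zfp746 and Zfp688 hold 32, 39 and 22 CG dinucleotides, and that of Zfp414 holds 8. Zfp746 holds 1 GC box and 1 TATA box, Zfp414 holds 2 CCAAT boxes and 1 TATA box, and the windows of Zfp422 and Zfp688 hold none of the 3 motifs. Across the 152 Zfp genes with an entry, 50.7% held a GC box, beside 67.6% of 8202 tested genes and 35.9% of all 27025 promoters. A CCAAT box was held by 76 of the 152, beside 39.2% of tested genes and 37.9% of all promoters, and a TATA box by 7.89%, beside 6.33% and 14.2%. The median number of CG dinucleotides was 16 in the Zfp promoters, beside 22 in tested genes and 7 in all promoters. A GC box was held by 41.7% of the promoters of genes with a KRAB match and by 58.2% of those without one, and a CCAAT box by 56.9% and 43.0%. These matches describe letters in the window and are not mapped binding sites.

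The 3 genes higher in Chd1KD at an unadjusted p under 0.05 were Zfp462, Zfp971 and Zfp317. Zfp462 (chr4:54944491-55083563), a large protein with 33 finger matches that restrains lineage genes through heterochromatin in mouse embryonic stem cells, had 10.05 and 10.61 RPKM in Chd1KD, against 7.151 and 8.960 RPKM in Control. Its groups did not overlap, the Control libraries differed more from each other than the Chd1KD libraries did, and the log2 fold change was 0.33 (SE 0.10, limma adjusted p = 0.18). Without Control replicate 2 its adjusted p was 0.042, in a range of 0.042 to 0.41 over the other settings. Zfp971 had 12.32 and 13.83 RPKM in Chd1KD, against 9.700 and 11.70 RPKM in Control (log2 fold change 0.27, limma adjusted p = 0.23). Zfp317, a KRAB gene, had 4.196 and 4.574 RPKM in Chd1KD, against 3.397 and 3.827 RPKM in Control (log2 fold change 0.22, limma adjusted p = 0.26).

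The largest positive fold change belonged to Zfp296, known from pluripotent mouse cells. Zfp296 had 4.451 and 3.115 RPKM in Chd1KD, against 3.065 and 2.318 RPKM in Control, a log2 fold change of 0.37 (SE 0.16, limma adjusted p = 0.28). The lower Chd1KD library was only just above the higher Control library. Zfp385a and Zfp488, named after their values were seen, both had a log2 fold change of 0.31 with overlapping groups. Zfp799, Zfp37, Zfp276, Zfp52 and Zfp143 had groups that did not overlap and log2 fold changes of 0.14 to 0.16.

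**Figure D2:**
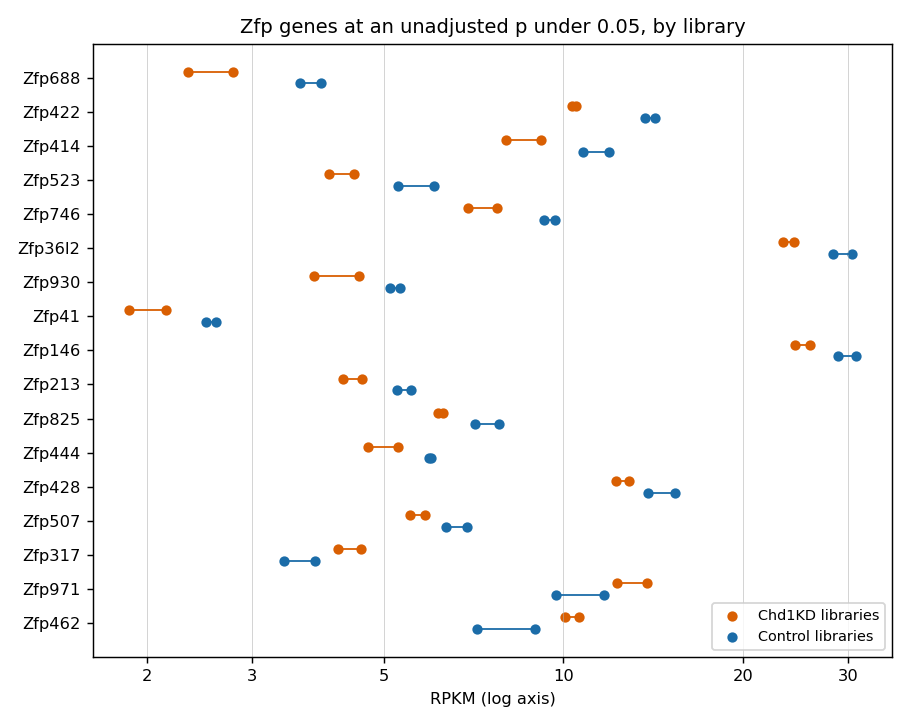
RPKM (horizontal axis, log scale) of the 17 expressed Zfp genes with an unadjusted p under 0.05, 1 row per gene ordered by log2 fold change, with 1 point per library, Chd1KD libraries in orange above Control libraries in blue, and a line joining the libraries of a group. The Chd1KD points lie left of the Control points in the upper 14 rows, for example 10.35 and 10.51 against 14.22 and 13.71 RPKM for Zfp422, and right of them in the lower 3 rows.

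The Zfp36 genes encode CCCH zinc finger proteins that bind AU-rich elements in messenger RNAs and recruit the CCR4-NOT deadenylase. Zfp36l2 (chr17:84183924-84187947) had 23.37 and 24.34 RPKM in Chd1KD, against 28.33 and 30.44 RPKM in Control, a log2 fold change of -0.29 (SE 0.06, limma adjusted p = 0.11). Zfp36l1 had 62.76 and 55.20 RPKM in Chd1KD, against 56.22 and 58.02 RPKM in Control. Zfp36, the gene of tristetraprolin, had 5.525 and 4.645 RPKM in Chd1KD, against 4.830 and 4.827 RPKM in Control. Zfp36l2 was the one of the 3 whose groups were apart, and whether its difference exceeds that of the others was not tested. Of 21 tested genes of the same decay route, 0 had an adjusted p under 0.05, and at an unadjusted p under 0.05, 2 were higher and 2 lower (beside 7.24% and 11.3% of all tested genes), with a median log2 fold change of 0.02, beside -0.02 over all tested genes. The CCR4-NOT deadenylase gene Cnot7 had 30.84 and 31.85 RPKM in Chd1KD, against 23.97 and 22.71 RPKM in Control (log2 fold change 0.41, limma adjusted p = 0.054), and Mapkapk2, a kinase that acts on tristetraprolin, had a log2 fold change of 0.21 (limma adjusted p = 0.15). The decapping enzyme gene Dcp2 had a log2 fold change of -0.31 (limma adjusted p = 0.17), and the AU-rich element binding gene Khsrp one of -0.14 (limma adjusted p = 0.27).

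A further 10 members were listed as acting on RNA or ribosomes. Of these 10, 0 had an unadjusted p under 0.05, beside 18.5% of all tested genes. Their log2 fold changes ran from -0.12 for Zfp346, a binder of double-stranded RNA, to 0.13 for Zfp622. Zfp598, the ubiquitin ligase that marks collided ribosomes, had 24.07 and 22.95 RPKM in Chd1KD, against 23.13 and 21.64 RPKM in Control. Zfp638, which binds nuclear RNA and the HUSH silencing complex, had 16.70 and 16.63 RPKM in Chd1KD, against 16.53 and 16.95 RPKM in Control. Zfp326, a subunit of the DBIRD complex that links transcript elongation to splicing, had 17.61 and 15.43 RPKM in Chd1KD, against 18.14 and 16.84 RPKM in Control. The groups overlapped for Zfp598, Zfp638 and Zfp326, as they did for Zfp106, Zfp330, Zfp207 and Zfp800. Zfp800 is kept as listed, and a role of it on RNA or ribosomes is not established here.

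Of 7 listed DNA-binding regulators without KRAB, 0 had an unadjusted p under 0.05, beside 18.5% of all tested genes. Zfp143, which binds promoters of housekeeping genes and is found at chromatin loops, had 8.043 and 7.890 RPKM in Chd1KD, against 7.319 and 7.007 RPKM in Control, a log2 fold change of 0.14 (SE 0.07, limma adjusted p = 0.34). Zfp384 had 25.87 and 25.50 RPKM in Chd1KD, against 28.75 and 27.53 RPKM in Control, a log2 fold change of -0.13 (SE 0.06, limma adjusted p = 0.31). The groups were apart in both. Zfp281, a GC-rich DNA binder of stem cells, had 17.54 and 17.61 RPKM in Chd1KD, against 17.33 and 17.36 RPKM in Control, and the related Zfp148 had 5.194 and 5.136 RPKM in Chd1KD, against 5.367 and 5.085 RPKM in Control. Zfp219, Zfp652 and Zfp64 had log2 fold changes of -0.11, 0.08 and 0.01.

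Of 12 members listed as partners of chromatin or ubiquitin complexes, 1, Zfp462, had an unadjusted p under 0.05, beside 18.5% of all tested genes. The median log2 fold change of the 12 was -0.01, beside -0.02 over all tested genes. Zfp217, which works with the CtBP and LSD1 co-repressors, had 12.08 and 11.57 RPKM in Chd1KD, against 11.09 and 11.83 RPKM in Control. Zfp335, part of a histone H3 lysine 4 methyltransferase complex, had 12.78 and 13.11 RPKM in Chd1KD, against 13.82 and 13.01 RPKM in Control. Groups overlapped for both. Zfp687 and Zfp592, which share a complex with Zmynd8, had log2 fold changes of -0.09 and -0.06. Zfp644, a partner of the histone methyltransferases G9a and GLP, had one of 0.06. Zfp609 and Zfp608 had 0.07 and -0.09, and Zfp451, Zfp516, Zfp91 and Zfp277 lay between -0.08 and 0.08.

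The genes known to guard imprints and silence retroviruses had log2 fold changes between -0.07 and 0.15. Zfp57, which keeps DNA methylation at imprinted regions, had 32.36 and 35.19 RPKM in Chd1KD, against 33.12 and 35.38 RPKM in Control (log2 fold change -0.02, SE 0.07). Zfp445, which acts beside it, had 13.69 and 14.38 RPKM in Chd1KD, against 14.44 and 13.99 RPKM in Control (log2 fold change -0.02, SE 0.06). The groups overlapped in both. Zfp568, a repressor of a placental transcript of Igf2, had 7.720 and 7.924 RPKM in Chd1KD, against 7.528 and 8.170 RPKM in Control. Zfp809, which silences murine leukaemia virus, had 4.237 and 4.407 RPKM in Chd1KD, against 4.576 and 4.613 RPKM in Control, so that the Chd1KD values were lower by a log2 fold change of -0.07 (limma adjusted p = 0.65). Its annotated span overlaps that of Zfp599. Of the 9 members of this list 0 had an unadjusted p under 0.05, beside 18.5% of all tested genes. On the log2 fold change scale Zfp37 was at 0.15, Zfp87 at 0.04, Zfp932 at 0.01, Zfp59 at -0.01 and Zfp961 at -0.03.

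The KRAB A box was searched as a residue pattern in the translated GENCODE M21 proteins of 187 members. It was found in 83 of the 187 (44.4%), and in 135 of 190 Zfp genes under 2 RPKM (71.1%). A gene without a match may still carry a KRAB domain, since Zfp37, listed here as a KRAB gene, had no match. Members with a match had a median of 12 C2H2 finger matches and a median level of 3.75 RPKM, and members without a match had 7 and 8.55 RPKM. The median log2 fold change was -0.01 in both sets, with a median size of 0.048 with a match and 0.065 without. At an unadjusted p under 0.05, 2 of the 83 were higher and 4 lower in Chd1KD, and 1 of the 104 without a match was higher and 10 were lower, beside 7.24% higher and 11.3% lower of all tested genes. The pattern was widened after the values of a narrower one had been seen. The narrower one matched 59 members, of which 1 was higher and 1 lower, against 2 higher and 13 lower of the other 128. The number of lower genes in each set thus depends on the pattern. The share at an unadjusted p under 0.05 was 7.23% with a match against 10.6% without for the wider pattern. For the narrower pattern it was 3.39% against 11.7%, beside 18.5% of all tested genes. The difference between the sets was not tested.

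**Figure D3:**
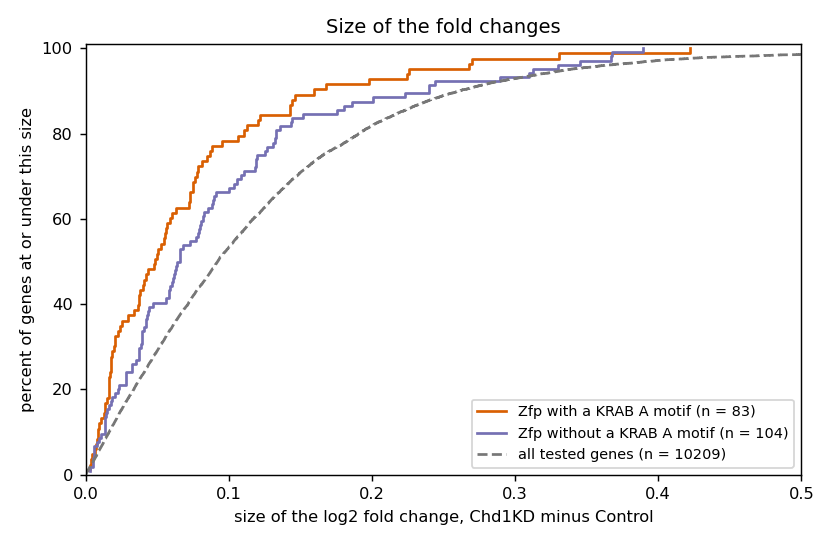
Percent of genes (vertical axis) at or under a given size of the log2 fold change between Chd1KD and Control (horizontal axis), for 83 expressed Zfp genes with a KRAB A match in orange, 104 without one in purple and all 10209 tested genes as a grey dashed line. Both Zfp curves lie left of the grey line over most of the range, with median sizes of 0.048 and 0.065 beside 0.092 for all tested genes.

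The 14 genes that were lower at an unadjusted p under 0.05 had a median transcript GC content of 53.4%, against 46.9% in the 170 members with a sequence and an unadjusted p of 0.05 or more. Across the 187 members, Spearman's rho of the log2 fold change with GC content was -0.17, and rho of the difference between the libraries of 1 group was -0.31 in Chd1KD (replicate 2 minus replicate 1) and -0.01 in Control (replicate 2 minus replicate 1). These are descriptions across genes of the same libraries, and the part of GC content in the fold changes was not tested. The number of finger matches had a rho of 0.07 with the log2 fold change.

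Partners of the KRAB domain were looked at beside the Zfp genes. Of 24 tested genes of the Trim28 co-repressor route, 0 had an adjusted p under 0.05. At an unadjusted p under 0.05, 0 were higher and 5 lower (beside 7.24% and 11.3% of all tested genes). The log2 fold change was positive for 7 and negative for 17, beside 43.5% positive among all tested genes. Its median was -0.09, beside -0.02 over all tested genes. Trim28 itself had 130.8 and 132.2 RPKM in Chd1KD, against 149.9 and 140.7 RPKM in Control (log2 fold change -0.14, SE 0.06, limma adjusted p = 0.26). The remodeller gene Chd3 had 50.74 and 52.48 RPKM in Chd1KD, against 60.57 and 64.56 RPKM in Control (log2 fold change -0.27, limma adjusted p = 0.11). Uhrf1, which guides maintenance DNA methylation, and Mbd3, a subunit of the NuRD complex, had log2 fold changes of -0.22 and -0.20 (limma adjusted p = 0.13 and 0.17). Dnmt1 had one of -0.19 (limma adjusted p = 0.23), and the methyltransferase gene Setdb1 one of -0.02 (limma adjusted p = 0.88). Among the 7 genes with a positive value, Chd4 and Cbx3 both had 0.1 (limma adjusted p = 0.39 and 0.46).

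The members lie on 20 chromosomes, with 46 on chromosome 7 and 22 on chromosome 17. Joining neighbours at most 500 kb apart gave 15 genomic clusters of at least 3 members, which hold 74 of the 188. A KRAB match was found in 66.2% of the clustered members and in 30.1% of the others. Fold changes of both signs occurred in 12 of the 15 clusters, and the median log2 fold change was -0.02 inside clusters and -0.01 outside. At an unadjusted p under 0.05 there were 7 of the 74 clustered members and 10 of the 114 others, beside 18.5% of all tested genes. No cluster had more than 1 such member, and 7 clusters had 1. With so few such members, their spread over the clusters is a description only.

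The cluster with most members spans chr7:29768552-30169775 and holds 9 members among 15 Zfp genes. Zfp84, Zfp790, Zfp74, Zfp568, Zfp82, Zfp566, Zfp260 and Zfp382 had log2 fold changes between -0.05 and 0.09, and Zfp146 at its end had -0.24. Of the 50-base stretches of Zfp82, 94.4% occur in transcripts of other genes, with Gm26920 sharing the most, so its value is uncertain. In the cluster at chr17:21008941-22361428, 8 of 17 Zfp genes were members and all 8 had a KRAB match. Zfp52 had a log2 fold change of 0.14 there and Zfp994 one of -0.14, with Zfp160, Zfp51, Zfp53, Zfp948, Zfp942 and Zfp944 between them. The 2 clusters thus held genes on both sides of 0.

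The cluster at chr17:32765496-33631716 holds 8 members of 13 Zfp genes, from Zfp871 to Zfp414. Zfp799 stood at 0.16, with 2.895 and 2.737 RPKM in Chd1KD, against 2.411 and 2.419 RPKM in Control. Zfp955a stood at -0.17 and Zfp101 at -0.15, and Zfp414 at -0.37, while Zfp472, Zfp81, Zfp871 and Zfp955b lay between -0.08 and 0.04. Zfp955a and Zfp955b share sequence with each other, 52.0% and 32.2% of their 50-base stretches being found in other genes. The cluster at chr7:127233061-127885996 holds 7 members of 10 Zfp genes, with Zfp688 at -0.42, Zfp668 and Zfp646 at -0.12, Zfp747 at -0.09, Zfp768 at -0.06, Zfp771 at 0.02 and Zfp553 at 0.06. In a cluster of 6 on chromosome 6, Zfp746 stood at -0.33 and its 5 neighbours between -0.04 and 0.01.

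**Figure D4:**
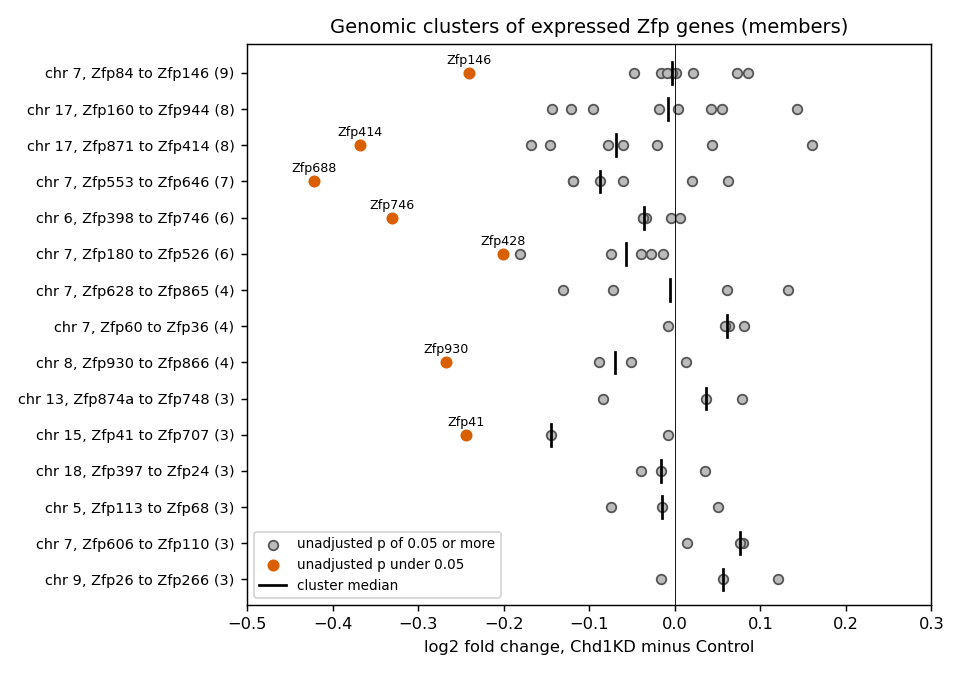
Log2 fold change (Chd1KD minus Control, horizontal axis) of the 74 clustered Zfp genes, 1 row per genomic cluster ordered by the number of members (in brackets), 1 point per gene, orange for an unadjusted p under 0.05, with a black bar at the cluster median. The medians lie between -0.14 and 0.08, and no row has more than 1 orange point, for example Zfp688 at -0.42 and Zfp746 at -0.33.

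Some values rest on sequence that other genes share. In 17 members at least 20% of the 50-base stretches of the transcript occur in transcripts of other genes, among them Zfp935 with 100%, Zfp82 with 94.4% and Zfp973 with 88.7%. Of the genes with an unadjusted p under 0.05, this touches Zfp971 (42.4%), Zfp825 (28.7%) and Zfp414 (25%). The genes sharing most with them are Gm14288, Gm46430 and Gm20507, in that order. A further limit is overlap, since 23 members overlap another protein-coding gene and strand use in counting is not given in the sources used here. Of the members named above, this touches Zfp276 (with Fanca and Vps9d1), Zfp646, Zfp346, Zfp219, Zfp830, Zfp687, Zfp445, Zfp91, Zfp706 and Zfp809.

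Other gene families at the same level were looked at after the Zfp values were known. At an unadjusted p under 0.05 the share was 18.2% of 33 Zbtb genes, 0.0% of 13 Zscan and Zkscan genes, 7.14% of 14 Klf and Sp genes and 8.33% of 12 Zc3h genes. It was 23.5% of 17 Zdhhc genes, 17.2% of 29 Trim genes and 17.9% of 56 Rnf genes. None of these 7 families had a gene with an adjusted p under 0.05. Over all tested genes the share was 18.5%. The Zfp share of 9.04% lies within the range of the 7. The shares below it are those of the Zscan and Zkscan, Klf and Sp, and Zc3h families, of 12 to 14 genes each. Those of the larger Zbtb, Zdhhc, Trim and Rnf families, 17.2% to 23.5%, lie above it. The difference of the Zfp share from those of the 7 families was not tested.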

How the data were processed

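Poly(A) RNA of 4 Hepa1-6 libraries was measured, 2 Chd1KD and 2 Control, with groups and replicate numbers taken from the sample titles. The authors deposited RPKM values of 30582 RefSeq transcripts (file headers). Per the submitters' processing notes, Cufflinks 1.3.0, TopHat 1.4.1 and mm10 were used. Neither strand setting nor annotation release is given in the sources used here. RPKM carry no counts, so depth is unknown, no count model was used and no counting interval is given.

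Symbols came from the NCBI table of assembly GRCm38.p6 (30003 rows) and GENCODE M21 (180 rows), and 399 rows, with 0.304% of the summed RPKM, stayed unnamed. RPKM was summed over the transcripts of a gene, giving 23521 genes. The 10209 genes averaging 1 RPKM or more were tested in R 4.3.3 by limma 3.58.1 (log2(RPKM + 1), trended variance, no block), Benjamini-Hochberg adjusted over all of them, and checked on simulated data. Exact permutation of the 4 libraries was left out, since its smallest two-sided p is 0.333.

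Members, gene lists and settings were chosen with earlier results of these data known. Named genes were the 10 largest positive and 10 largest negative fold changes among members whose groups do not overlap, and the 6 most abundant. Also named were the genes next to the threshold, the members of the 4 largest clusters and the listed Zfp genes. Up to 4 examples were planned for each other list, and more were named for the co-repressor route. Clusters, C2H2 fingers (C, 2 to 4 residues, C, 12 residues, H, 3 to 5 residues, H) and KRAB matches were described without a test. A table of RefSeq proteins was not used here, so GENCODE M21 coding sequences were translated instead. Promoter motifs, GC content, shared 50-base stretches and the comparison with other families were added after the values were seen. Alternatives covered the pseudocount, filter, scaling, variance model, replicate block, transcript choice, member threshold and each library left out. Figures were drawn with matplotlib 3.10.9.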

Additional observations from a re-analysis of the deposited data

How the results depend on the processing

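The count of 0 Zfp genes at an adjusted p under 0.05 held under other pseudocounts, filters and scalings, without the trend, and when the top transcript stood for its gene, in limma fits that kept the 188 members. It was 1 with a robust variance trend (Zfp422) and 1 at an adjusted p under 0.1, and 0 to 2 with each library left out, the 2 being Zfp422 and Zfp462 without Control replicate 2. A library left alone in its group is assumed there to vary like the other group. The count over all tested genes was 0 without a filter on low values, where Chd1 at -0.96 also missed the threshold, 6 without the trend, 12 when the top transcript stood for its gene, 92 with a robust trend, 205 at an adjusted p under 0.1 and 49 to 236 with each library left out. Zfp genes at an unadjusted p under 0.05 numbered 10 to 18 with each library left out, the 10 without Chd1KD replicate 1, and 11 of the 105 at 5 RPKM or more. A negative fold change was found in 60 of those 105, and in 70 of 130 members with little shared sequence. These 130 had under 5% of shared 50-base stretches and no overlapping protein-coding gene, an alternative added after the data were seen. These last counts differ by the number of genes counted. The median log2 fold change was 0.0147 with quantile normalization and -0.028 to 0.0058 with each library left out. The cause of the other changes was not tested. Clusters numbered 12 with gaps of 200 kb and 18 with 1000 kb, and the narrower KRAB pattern matched 59 members.

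The replicate numbers are shared between the groups but the labels give no pairing. Across all tested genes, the deviations of Chd1KD replicate 1 and Control replicate 1 from their group means correlated at r = 0.22. This value alone does not show whether the numbers pair the libraries. With the number as a replicate block, 325 of all tested genes and 4 Zfp genes had an adjusted p under 0.05, namely Zfp422 (0.035), Zfp414 (0.039), Zfp36l2 (0.045) and Zfp385a (0.048).

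Of the 86 named Zfp genes, 32 changed sign under some setting when both values were other than 0 at 2 decimals, each of them at 0.09 or less in size in the fit reported and each without a call. Without rounding 39 did so, the further 7 being Zfp217, Zfp644, Zfp706, Zfp568 (-0.06 to 0.05 with each library left out, 0.02 with quantile normalization), Zfp800 (-0.06 to 0.06), Zfp74 (-0.04 to 0.04) and Zfp948 (-0.04 to 0.04). The counts that follow are at 2 decimals. With quantile normalization 8 did so, at 0.02 for Zfp84 and Zfp942, 0.03 for Zfp382 and Zfp59, 0.01 for Zfp472, Zfp638, Zfp148 and Zfp277. With the top transcript 3 did so, at 0.06 for Zfp638, 0.03 for Zfp57, 0.10 for Zfp809. With each library left out 31 did so, over the ranges of Zfp36l1 (-0.05 to 0.13), Zfp106 (-0.02 to 0.07), Zfp3 (-0.06 to 0.07), Zfp84 (-0.05 to 0.02), Zfp790 (-0.02 to 0.16), Zfp82 (-0.10 to 0.14), Zfp382 (-0.15 to 0.13), Zfp160 (-0.03 to 0.15), Zfp53 (-0.07 to 0.16), Zfp942 (-0.12 to 0.08), Zfp472 (-0.06 to 0.02), Zfp955b (-0.15 to 0.03), Zfp81 (-0.08 to 0.17), Zfp771 (-0.03 to 0.07), Zfp768 (-0.14 to 0.02), Zfp747 (-0.23 to 0.05), Zfp36 (-0.05 to 0.16), Zfp326 (-0.17 to 0.01), Zfp638 (-0.02 to 0.01), Zfp148 (-0.05 to 0.02), Zfp652 (-0.01 to 0.17), Zfp64 (-0.05 to 0.06), Zfp516 (-0.18 to 0.01), Zfp592 (-0.14 to 0.03), Zfp91 (-0.06 to 0.03), Zfp277 (-0.09 to 0.06), Zfp57 (-0.08 to 0.04), Zfp445 (-0.05 to 0.02), Zfp932 (-0.03 to 0.05), Zfp961 (-0.06 to 0.01) and Zfp59 (-0.02 to 0.01).

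With 2 libraries a group and unknown depth, small differences of low genes are not detectable, and a p that misses the threshold does not show that a gene was equal in both groups.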
